A study of Macaca mulatta with 30 samples.

Results

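A list of 40 genes of the T cell was examined for signal in thymus and in 4 other RNA sources of the rhesus macaque. The list holds the CD3 complex, the coreceptors, surface receptors of T cells, the kinases, phosphatases and adaptors of T cell receptor signalling, enzymes and NFAT factors further down the pathway, and transcription factors of the T lineage. Of these 40 genes, 29 had at least 1 probeset that the platform annotation pairs with a single gene symbol, out of 14132 such genes on the array. Where a gene had several such probesets, the one with the highest average over all 30 arrays stood for it. CD3D, CD3E, CD3G, CD247, CD2, CD27, LCK, FYN, VAV1, THEMIS and LEF1 had no single-symbol probeset in the annotation used here and were not analysed. None of the 4 CD3 complex genes was therefore measured.

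The sources were thymus, cerebral cortex, pancreas and testis tissue and a line of immortalized fibroblasts, with 1 RNA sample from each. Aliquots of the thymus, pancreas and testis RNA came from Oregon, of the cortex RNA from Yerkes and of the fibroblast RNA from Nebraska, and the labels give no age, strain or treatment. Each of the 3 centers labeled and hybridized 2 aliquots of every RNA to the rhesus macaque GeneChip, which gave 6 arrays per source. Signals are log2 values of probesets. The 6 arrays of a source share 1 RNA, so every p-value measures the spread of labeling and hybridization and not that between animals. Over all probesets, the Oregon arrays averaged 6.33, the Nebraska arrays 6.36 and the Yerkes arrays 6.91, and center was a term of the fit over all 30 arrays. Ranges of arrays over the 3 centers include this offset. Array medians were higher in pancreas than in the other sources at each center, with 6.18 to 6.19 against 5.95 to 6.05 for Oregon, 6.22 against 5.97 to 6.08 for Nebraska and 6.81 against 6.58 to 6.76 for Yerkes. The paper also rated the pancreas data as lower in quality than the other data, by scaling factors and by standardized standard errors. It advised caution with the pancreas arrays.

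T cells recognise peptides held by MHC molecules through a receptor whose CD3 chains carry the signalling motifs. The kinase LCK, carried to the receptor by CD4 or CD8, phosphorylates these motifs, ZAP70 binds them, and the adaptors LAT and SLP-76 then assemble the complex that leads to calcium, RAS and NF-kappaB signals. The thymus is where T cells are made, and most of its cells are thymocytes that carry both coreceptors. In RNA from whole tissue, a larger number of cells of a type and more RNA per cell cannot be told apart.

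Thymus gave the highest signal for most of the list. In the limma fit, 25 of the 29 genes were higher in thymus than in each of the other 4 sources at an adjusted p under 0.05, a call that 12.6% of all 14132 genes received. The difference from the highest other source was 2 or more on the log2 scale for 15 of the 29, against 1.14% of all genes. Its median was 2.25 over the 29 genes and -0.58 over all genes. Every thymus array lay above every array of the other sources for 20 of the 29 genes, against 5.46% of all genes. Within each center, both thymus arrays lay above every other array of that center for 25 of the 29, all but CD6, CTLA4, LAT and NFATC1, against 11.1% of all genes. One gene, CTLA4, was below another source at an adjusted p under 0.05, as were 74.8% of all genes. The other 3 that were not called were LAT, MALT1 and NFATC1.

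**Figure D1:**
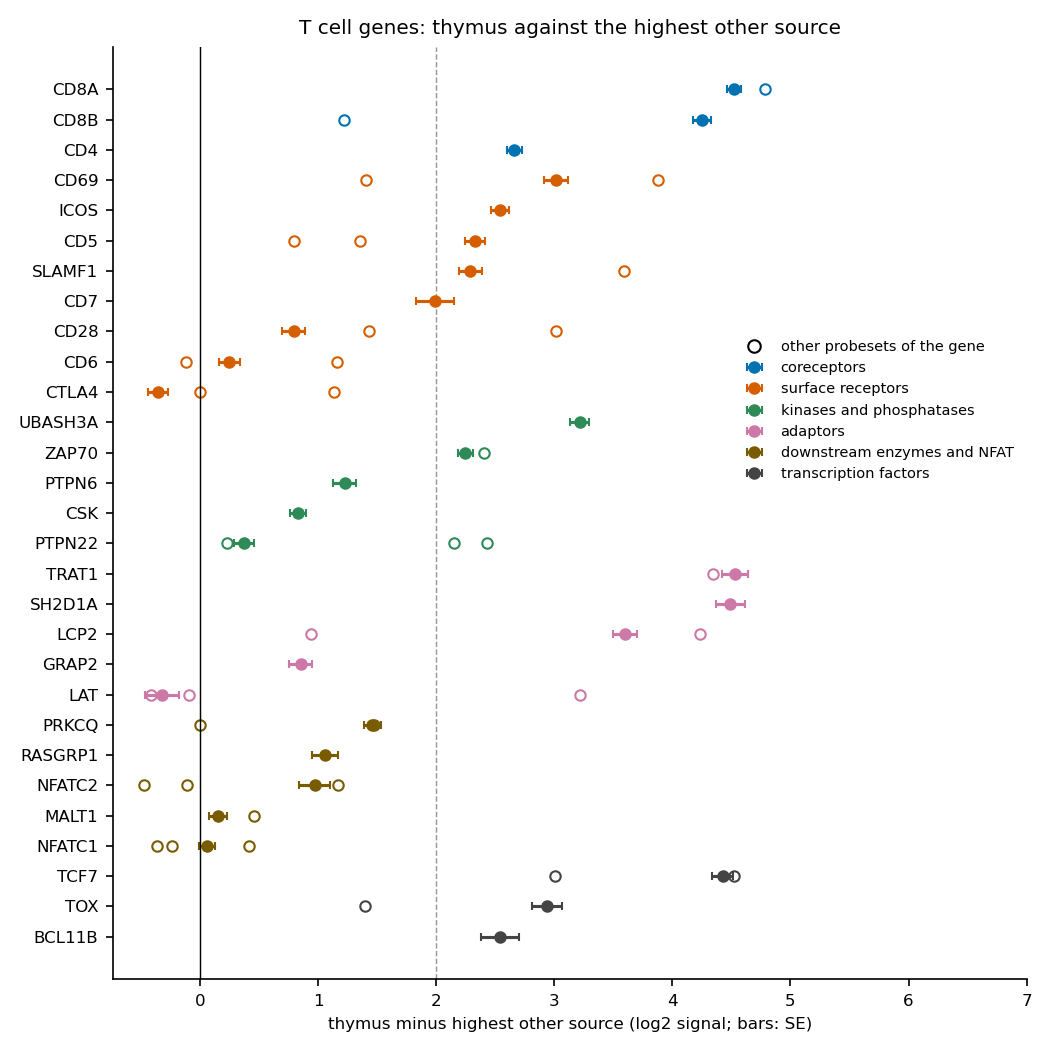
Thymus signal minus the signal of the highest other source on the log2 scale (x axis) for the 29 genes (y axis), grouped by role. Filled points with bars are the fitted difference and its SE, open circles are other probesets of the same gene, and the dashed line stands at 2. The chosen probesets of 15 genes lie at or beyond 2, and those of CTLA4 and LAT lie below 0.

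All 3 coreceptor genes were higher in thymus. CD8A, the alpha chain of the coreceptor that binds MHC class I, had its lowest, median and highest thymus arrays at 12.29, 12.37 and 12.67, against 7.67, 7.84 and 8.28 in testis. Pancreas arrays reached at most 7.33, cortex arrays 6.91 and fibroblast arrays 6.18. The groups were far apart, and the difference of thymus from testis was 4.52 (SE 0.06, adjusted p = 1.86e-32). CD8B, the beta chain, stood at 11.07, 11.36 and 11.91 in thymus against 6.92, 7.03 and 7.71 in testis, and no array of another source was above 7.71 (difference 4.25, SE 0.07, adjusted p = 1.39e-29). For both chains the testis arrays were the highest outside thymus. CD4, the coreceptor for MHC class II, was at 8.96, 9.12 and 10.02 in thymus, and the next source was pancreas at 6.42, 6.50 and 7.25. Every CD4 array outside thymus was thus below every thymus array, with a difference of 2.66 (SE 0.06, adjusted p = 2.73e-26).

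Among 8 surface receptors, 7 were higher in thymus, and 5 had no overlap between thymus and other arrays. The shares of all genes with these results, 12.6% and 5.46%, apply to each role group. CD69, an early activation marker that is also carried by maturing thymocytes, led the group with 8.67, 8.74 and 8.99 as its lowest, median and highest thymus arrays, against 5.51, 5.65 and 6.19 in testis (difference 3.01, SE 0.10). ICOS, a costimulatory receptor, was at 8.08, 8.21 and 8.58 in thymus and reached at most 6.20 in testis and 6.07 in pancreas (difference 2.54, SE 0.08). CD5, which dampens T cell receptor signals, and SLAMF1, a receptor that binds itself on neighbouring cells, differed from their next source by 2.33 and 2.29. CD7, an early marker of the T lineage, was 1.99 (SE 0.16) above fibroblast, and its thymus arrays spanned 6.90 to 8.58. On CD7, all 24 arrays outside thymus were below the median signal of their own array.

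CD28, CD6 and CTLA4 had the smallest differences of the surface group, and pancreas was the closest source for each. CD28, the main costimulatory receptor, was at 6.79, 7.17 and 8.12 in thymus against 6.24, 6.44 and 7.12 in pancreas, ranges that overlapped over the 3 centers but not within any of them (difference 0.79, SE 0.10, adjusted p = 1.33e-08). CD6, a receptor related to CD5, was at 6.76, 6.96 and 8.02 in thymus and 6.74, 6.94 and 7.45 in pancreas. These ranges coincided almost entirely at their lower ends, and the difference was 0.25 (SE 0.09, adjusted p = 0.0133). Fitted alone, Yerkes gave 0.72, Oregon -0.093 and Nebraska 0.13. The call for CD6 was lost with aliquots averaged (adjusted p = 0.0639), after quantile normalization of all arrays (adjusted p = 0.075) and in a fit with no center term (adjusted p = 0.344). It was also lost without Yerkes pancreas replicate 2 (adjusted p = 0.0681), Yerkes thymus replicate 1 (adjusted p = 0.0562) or Yerkes thymus replicate 2 (adjusted p = 0.0528).

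CTLA4, the inhibitory counterpart of CD28, was the only gene of the list below another source. Its lowest, median and highest arrays were 5.57, 6.18 and 6.78 in thymus and 6.26, 6.46 and 7.13 in pancreas, and the difference of thymus from pancreas was -0.35 (SE 0.08, adjusted p = 0.000378). It was below 0 at each center. Thymus was above the other 3 sources on the same probeset, and without the pancreas arrays CTLA4 was higher in thymus by 0.41 (adjusted p = 0.000288). Pancreas was also the source with the higher array medians and the lower array quality given above. The part of these in the CTLA4 difference was not tested.

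All 5 measured kinases and phosphatases were higher in thymus. UBASH3A, a phosphatase-like regulator that restrains the receptor, showed the largest difference, with 9.00, 9.04 and 9.43 as the lowest, median and highest thymus arrays against 5.58, 5.75 and 6.45 in pancreas (difference 3.21, SE 0.08, adjusted p = 3.14e-26). ZAP70, the kinase that docks on the phosphorylated receptor, was at 9.91, 10.30 and 10.79 in thymus and 7.77, 7.91 and 8.59 in testis (difference 2.25, SE 0.06). Neither gene had an array outside thymus within its thymus range. CSK, which phosphorylates the inhibitory site of LCK and is made by most cell types, was 0.83 (SE 0.06) above fibroblast. PTPN22, a phosphatase that opposes LCK, had the smallest difference of this group at 0.37 (SE 0.08, adjusted p = 0.000154). Its thymus arrays, at 6.06, 6.42 and 7.06, overlapped the pancreas arrays, at 5.76, 5.96 and 6.69, over the 3 centers but not within any of them. In a fit with no center term the adjusted p was 0.124.

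PTPN6 (SHP-1), a phosphatase of blood cells at large, was at 9.10, 9.29 and 9.60 in thymus and at 7.89, 8.11 and 8.40 in testis. Pancreas arrays lay at 6.18 to 7.34, cortex arrays at 5.84 to 6.61 and fibroblast arrays at 5.15 to 6.13. The 6 thymus arrays were the highest and the 6 testis arrays came next with no overlap on either side. Thymus exceeded testis by 1.22 (SE 0.10), and testis exceeded pancreas by 1.41 (SE 0.10).

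Of 5 measured adaptors, 4 were higher in thymus. TRAT1, a transmembrane adaptor that associates with the receptor, had a difference of the same size as CD8A. It was at 10.72, 10.93 and 11.19 in thymus, against 6.12, 6.37 and 6.74 in testis and at most 5.97 in any other source (difference 4.53, SE 0.11, adjusted p = 4.02e-26). SH2D1A (SAP), the adaptor of the SLAM family receptors, and LCP2 (SLP-76), which LAT recruits, followed at 4.49 (SE 0.12) and 3.60 (SE 0.10). No array of another source reached a thymus array for these 3 adaptors. GRAP2 (GADS), which links LAT to SLP-76, was 0.85 (SE 0.10) above pancreas, with thymus arrays at 7.48 to 8.79 and pancreas arrays at 6.63 to 7.70 that did not overlap within any center.

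LAT, the membrane scaffold of the pathway, was not called in thymus. On its chosen probeset the lowest, median and highest arrays were 9.69, 10.19 and 10.33 in thymus and 9.95, 10.54 and 10.66 in testis, with cortex at 9.37, 9.62 and 9.79. Testis was above thymus at each center, and the difference of thymus from testis was -0.32 (SE 0.14, adjusted p = 0.0596). This stood at the edge of the threshold. The adjusted p fell under 0.05 in favour of testis without Yerkes thymus replicate 2 (adjusted p = 0.0418) and without any 1 of the 4 fibroblast arrays from Oregon and Nebraska (adjusted p = 0.0354 to 0.0485). In the RefSeq annotation of the T2T-MMU8v2.0 assembly, which is not the build of the array, the span of LAT overlaps that of SPNS1, a lysosomal lipid transporter. The probeset of SPNS1 was at 7.90 in thymus, 7.82 in cortex, 8.74 in fibroblast, 8.09 in pancreas and 7.87 in testis. The part of SPNS1 transcripts in the LAT signal was not tested.

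**Figure D2:**
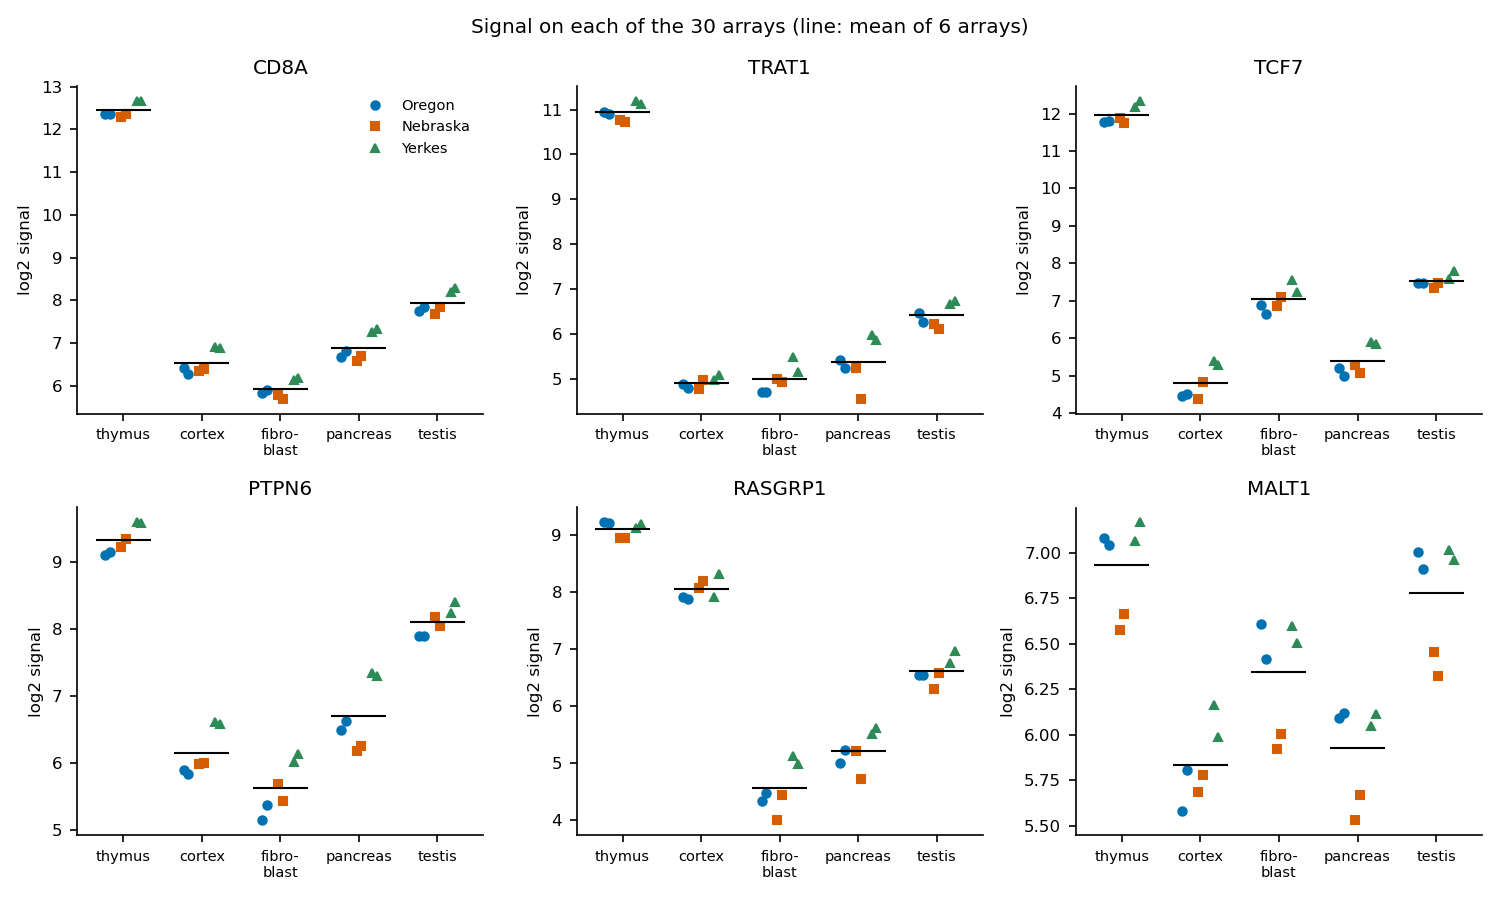
Log2 signal (y axis) of 6 genes on each of the 30 arrays by source (x axis), with the center as colour and marker and the mean of 6 arrays as a line. For CD8A, TRAT1 and TCF7 the thymus arrays stand far above all others, for PTPN6 testis comes between thymus and the rest, for RASGRP1 cortex does, and for MALT1 the thymus and testis arrays overlap.

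The downstream enzymes and NFAT factors had the smallest differences, with 3 of 5 higher in thymus and none by 2. PRKCQ (PKC-theta), the kinase that connects the receptor to NF-kappaB, was at 8.41, 8.55 and 8.74 in thymus and 6.82, 6.94 and 7.62 in testis (difference 1.46, SE 0.07). RASGRP1, the exchange factor that turns on RAS and is also known from neurons, was at 8.94, 9.15 and 9.22 in thymus and at 7.88, 7.99 and 8.31 in cortex. Both were above all arrays of the remaining sources, whose highest was a testis array at 6.98. Thymus exceeded cortex by 1.06 (SE 0.11, adjusted p = 6.62e-10) and cortex exceeded testis by 1.43 (SE 0.11). NFATC2, a calcineurin-dependent factor, was 0.97 (SE 0.13) above pancreas, with thymus arrays at 7.04 to 8.37 that overlapped those of pancreas, at 6.44 to 7.35, over the 3 centers but not within any of them.

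MALT1, the paracaspase of the NF-kappaB branch, was at 6.58, 7.06 and 7.17 in thymus and 6.32, 6.94 and 7.02 in testis. The 2 groups overlapped over the 3 centers, although both thymus arrays were the higher at each center, and the difference was 0.16 (SE 0.08, adjusted p = 0.0876). Without Oregon cerebral cortex replicate 1 the adjusted p was 0.0452. NFATC1 was at 7.40, 7.63 and 8.07 in thymus, 7.35, 7.47 and 8.02 in fibroblast and 7.12, 7.50 and 8.01 in testis. Neither its difference from fibroblast (0.06, SE 0.07, adjusted p = 0.482) nor that from testis (adjusted p = 0.173) passed, and all 3 ranges overlapped. Both genes were above cortex and pancreas.

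The 3 measured transcription factors were higher in thymus, each by more than 2 on its chosen probeset. TCF7 (TCF-1), needed for the earliest T lineage steps, was at 11.74, 11.85 and 12.34 in thymus against 7.35, 7.48 and 7.81 in testis (difference 4.43, SE 0.09, adjusted p = 9.58e-28). Fibroblast arrays, at 6.63 to 7.54, overlapped the testis arrays at their upper end, and cortex and pancreas did not exceed 5.90. TOX, a factor of CD4 lineage development, was at 9.56, 9.74 and 9.95 in thymus and 6.37, 6.84 and 7.14 in cortex (difference 2.94, SE 0.13). Its cortex and testis levels did not differ beyond their spread on this probeset (0.06, SE 0.13, adjusted p = 0.687), and its fibroblast arrays were lowest at 3.70 to 4.83. On its other probeset, MmugDNA.10257.1.S1_at, cortex was above testis (0.47, SE 0.10, adjusted p = 0.000141). The thymus difference there was 1.40 (SE 0.10). BCL11B, required for commitment to the T lineage and also known from cortical neurons, was at 7.48, 7.80 and 8.78 in thymus and 5.06, 5.58 and 5.68 in cortex (difference 2.54, SE 0.16). Cortex was not set apart from pancreas on this probeset (0.09, SE 0.16, adjusted p = 0.599), and all 24 arrays outside thymus were below the median of their own array.

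Thymus was also set against each source alone, in 4 comparisons that share the thymus arrays. All 29 genes were higher in thymus than in cortex (36.7% of all genes), with a median difference of 2.68. Against fibroblast 28 were higher (28.7% of all genes) with a median of 2.73, and the exception was NFATC1. Against pancreas 28 were higher (38.1% of all genes) with a median of 2.61, and CTLA4 was lower. The comparison with testis called 26 genes (31.2% of all genes) with a median of 2.49, and LAT, MALT1 and NFATC1 were not called. In the other direction, cortex, fibroblast and testis each exceeded thymus for 0 of the 29 genes and pancreas for 1, where 37.9%, 38.4%, 33.9% and 48.9% of all genes were higher in those sources.

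The order of the remaining sources was less uniform. Outside thymus, testis gave the highest signal for 12 of the 29 genes, pancreas for 10, fibroblast for 4 and cortex for 3. The shares of all genes were 21.8% for testis, 31.3% for pancreas, 27.8% for fibroblast and 19.1% for cortex. That source was set apart from the one after it at an adjusted p under 0.05 for 9 of the 12 testis genes, 6 of the 10 pancreas genes, 1 fibroblast gene (CD5) and 1 cortex gene (RASGRP1). Such calls were made for 15.9% of all genes in testis, 23.8% in pancreas, 21.7% in fibroblast and 14.5% in cortex. The 6 pancreas genes were CD6, CD28, CTLA4, SLAMF1, PTPN22 and GRAP2, and the higher array medians and lower array quality of pancreas go with them. Whether these account for the order was not tested.

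Testis exceeded cortex, fibroblast and pancreas for 9 of the 29 genes, against 15.9% of all genes. They were CD8A, CD8B, ICOS, PTPN6, LAT, LCP2, TRAT1, MALT1 and TCF7. The differences from the highest of those 3 sources ranged from 0.18 for ICOS to 1.41 for PTPN6, with 1.04 for CD8A and 1.03 for TRAT1. All 3 of the largest held at each center, from 1.00 to 1.89 for PTPN6, 0.94 to 1.12 for CD8A and 0.78 to 1.21 for TRAT1. Markers of immature thymocytes moved the same way in testis. Of 7 measured, 5 (RAG2, DNTT, CD1A, CD1B and CD1E, but not PTCRA or ARPP21) were higher in testis than in those 3 sources, and the mean over the 7 was 7.48 to 7.97 on the testis arrays against 6.61 to 7.19 in cortex, 5.94 to 6.61 in fibroblast and 6.14 to 6.80 in pancreas. It was 10.97 to 11.53 on the thymus arrays. Of other lists, 1 of 5 myeloid genes (LYZ), 1 of 7 thymic epithelial genes (PRSS16), 1 of 5 B cell genes (CD22) and 1 of 7 cytotoxic T and NK cell genes (GZMA) were higher in testis than in those 3 sources, as were 6 markers of the testis's own germ and somatic cells. The mean over the 7 cytotoxic T and NK cell genes was also highest in testis, at 7.80 to 8.38 against 7.31 to 7.90 in thymus and 7.35 to 8.06 in pancreas. For the other lists both ends of the testis range were lower than those of cortex (myeloid) or pancreas (B cell and thymic epithelial). What these markers contributed to the testis signal of the T cell genes was not tested.

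On a linear scale, the testis signal above a baseline was a few percent of the thymus signal above it for most of the genes kept here. For genes called above cortex, fibroblast and pancreas in testis and at least 2 above them in thymus, the testis signal above the lowest of those 3 sources was expressed as a share of the thymus signal above it, in each of the 6 sets formed by a center and an aliquot number. The number is a name only and does not pair a testis with a thymus array, so the SD describes these 6 sets. LAT, only 0.49 above cortex in thymus, and MALT1, only 0.59 above fibroblast, were left out. Markers under the limit were left out too, among them the thymocyte gene CD1E, which was not higher in thymus than in testis. The limit of 2 keeps genes with a large thymus excess, which favours small shares. Shares of the whole signal, with no baseline taken off, would be larger. The share averaged 3.32% ± 0.27 for CD8A, 2.65% ± 0.25 for CD8B, 2.95% ± 0.25 for TRAT1 and 3.98% ± 0.50 for TCF7 (SD, n = 6 sets). LCP2 gave 4.10% ± 1.25 and ICOS 5.52% ± 1.21. The means of these 6 genes lay between 2.65% and 5.52%, whereas that of PTPN6 was 38.1% ± 3.42. Genes outside the list fell on either side, with 2.73% for SLA and 4.03% for RHOH but 30.5% for NFATC3 and 37.1% for PLCG1. Thymocyte and other thymus genes kept by the limit, without CD1E, gave 3.37% for RAG2, 3.43% for DNTT, 3.83% for CD1A, 4.75% for CD1B, 4.54% for PRSS16 and 7.61% for LYZ. Taken over the highest of the 3 sources instead, the shares were lower, at 2.28% for CD8A, 2.13% for TRAT1, 1.35% for TCF7 and 31.4% for PTPN6. These values are a description of probe signal, and no test was made of them.

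**Figure D3:**
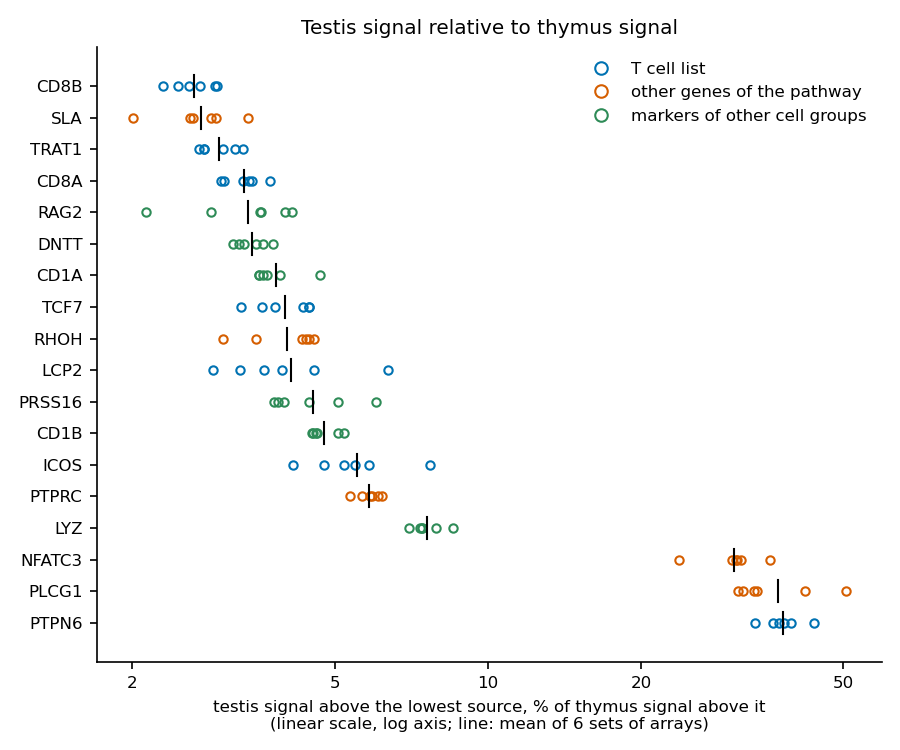
Testis signal above the lowest of cortex, fibroblast and pancreas as a percent of the thymus signal above it (x axis, log scale) for 18 genes (y axis). Open circles are the 6 sets of arrays and the line is their mean. PTPN6, PLCG1 and NFATC3 lie above 20 in every set, and the other 15 genes lie below 10.

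Other probesets of the same genes gave a partly different picture. The 19 genes with several probesets had 35 that were not chosen, and 25 of these were higher in thymus than in each other source, against 15.7% of all such probesets. The difference was 2 or more for 12, below another source for 4, and its median was 1.22. Shares of all such probesets at 2 or more or below another source were not computed. All probesets of 11 genes were called, and 8 genes (CD6, CTLA4, LAT, MALT1, NFATC1, NFATC2, PRKCQ and PTPN22) had mixed calls. For 15 genes a probeset with a lower mean showed a larger thymus difference than the chosen one. Each of the 29 genes had at least 1 probeset that was called. The share of all genes with at least 1 called probeset was not computed, and several probesets give a gene more chances of a call.

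LAT showed the widest split. Its probeset MmugDNA.12406.1.S1_s_at was at 9.50, 9.88 and 10.39 in thymus against 6.22, 6.67 and 7.23 in fibroblast, and no array outside thymus was above 7.23 (difference 3.22, SE 0.08, adjusted p = 7e-26). A further probeset followed the chosen probeset, with 9.55, 9.78 and 10.24 in thymus and 9.50, 9.99 and 10.42 in testis. The last, MmugDNA.27280.1.S1_at, was between 5.46 and 6.84 on all 30 arrays, with thymus below pancreas (-0.42, SE 0.07, adjusted p = 3.54e-06). For CTLA4, MmugDNA.25217.1.S1_at was higher in thymus, at 5.86, 6.05 and 6.19 against 4.64, 4.88 and 5.37 in pancreas (difference 1.13, SE 0.12), and MmugDNA.5921.1.S1_s_at did not separate these sources (0.00, SE 0.06, adjusted p = 0.96). The sign of the thymus difference of LAT and CTLA4 thus depended on the probeset.

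PTPN22 and CD28 were higher in thymus on their chosen probesets and by more on others. For PTPN22 the chosen difference of 0.37 stood beside 2.43 (SE 0.13), 2.15 (SE 0.10) and 0.23 (SE 0.13, adjusted p = 0.124). On the probeset with 2.43, thymus arrays were at 6.39 to 6.82 and all others at 4.59 or below. For CD28 the chosen 0.79 stood beside 3.02 (SE 0.11) and 1.43 (SE 0.10). MALT1 passed on its other probeset, MmugDNA.522.1.S1_at, by 0.46 (SE 0.16, adjusted p = 0.0179). Fitted alone, only Nebraska called it, at 1.15, against -0.04 at Oregon and 0.27 at Yerkes. NFATC1 passed on MmuSTS.1782.1.S1_at by 0.41 (SE 0.11, adjusted p = 0.00114), while 2 further NFATC1 probesets were below another source. On MmuSTS.1782.1.S1_at only Oregon called it when fitted alone, at 0.97, against 0.10 at Nebraska and 0.17 at Yerkes. NFATC2 gave 1.17 (SE 0.10) on MmugDNA.20507.1.S1_at and was below pancreas on MmugDNA.17843.1.S1_at (-0.47, SE 0.08). PRKCQ gave 1.48 (SE 0.09) on MmugDNA.8267.1.S1_at, close to the chosen probeset, and 0.00 (SE 0.08) on MmugDNA.20757.1.S1_at. CD6 gave 1.16 (SE 0.11) on MmugDNA.39441.1.S1_s_at and -0.11 (SE 0.09, adjusted p = 0.222) on MmugDNA.41654.1.S1_at. Which transcripts these probesets match was not examined here.

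**Figure D4:**
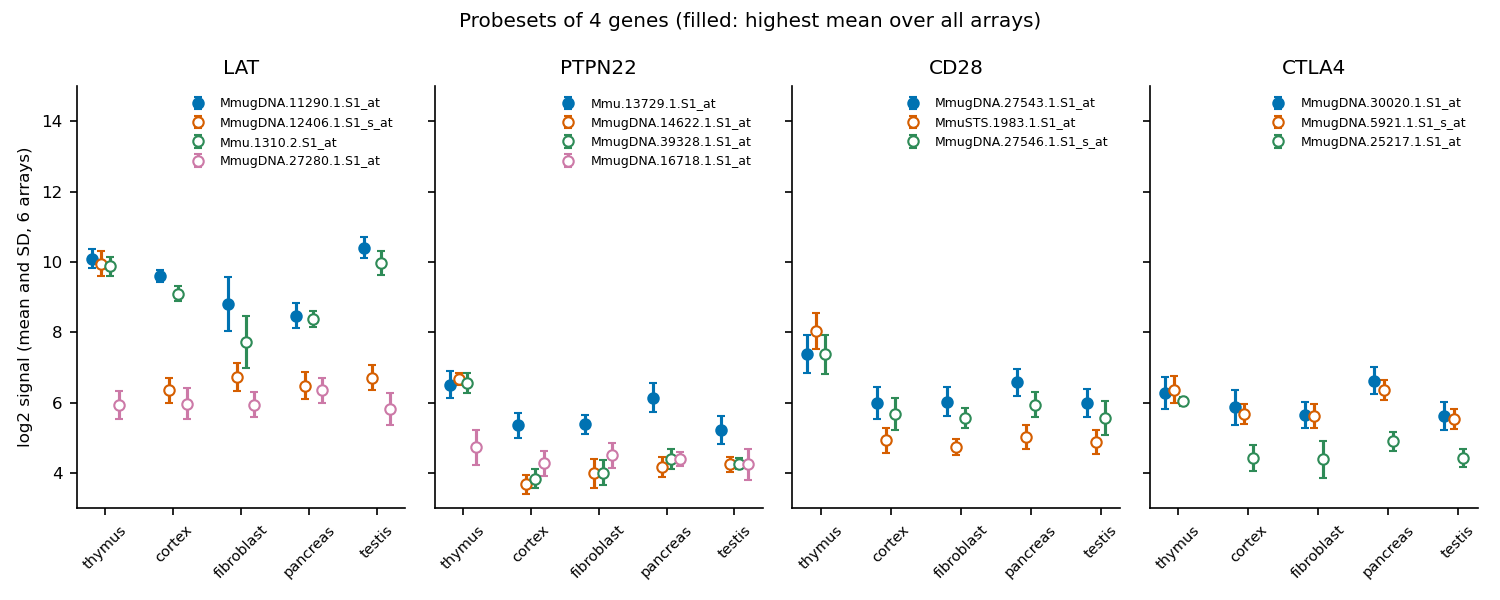
Log2 signal (y axis, mean and SD of 6 arrays) of each single-symbol probeset of LAT, PTPN22, CD28 and CTLA4 by source (x axis). Filled points are the chosen probeset and open points the others. LAT had 1 probeset with thymus near 10 and every other source below 7. On 2 others thymus and testis were both near 10 and not set apart by the fit. Its remaining probeset, low in every source, did not set thymus and testis apart either, and thymus was below pancreas on it.

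The list gave like counts at the 3 centers, which hybridized the same RNA. Fitted alone, Oregon called 24 of the 29 genes higher in thymus (12.9% of all genes), Nebraska 24 (10.4%) and Yerkes 25 (9.14%), and 24 were called at all 3. The 2 aliquots of a center differed by a median of 0.10 over the 435 pairs of the 29 genes and 5 sources, and by 0.06 over the thymus pairs. In thymus, both Yerkes arrays lay above all Oregon and Nebraska arrays for 22 of the 29 genes, against 84.6% of all genes, and in the other sources for 24 to 26 genes, against 81.5% to 93.2% of all genes. The size of the thymus difference, taken from the mean of the other 4 sources, depended on the center for 12 of the 29 genes in the interaction test, against 7.20% of all genes. All 12 were among the 25 higher in thymus.

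BCL11B showed the widest range over centers. Its 2 Oregon thymus arrays were at 8.78 and 8.67, those from Nebraska both at 7.48 and those from Yerkes at 7.73 and 7.86, so that Oregon was highest although Yerkes had the higher mean signal over all probesets. The thymus difference was 3.47 for Oregon, 2.32 for Nebraska and 2.15 for Yerkes. NFATC2 had its highest thymus arrays at Oregon as well, with 8.37 and 8.32 against 7.04 and 7.08 from Nebraska and 8.08 and 8.12 from Yerkes, and its differences were 1.81 for Oregon, 0.69 for Nebraska and 1.00 for Yerkes. CD7 ran otherwise, with Yerkes thymus arrays at 8.57 and 8.58 above those from Oregon, 7.66 and 7.62, and Nebraska, 6.90 and 6.98, and with differences of 2.71 for Yerkes, 2.28 for Oregon and 1.54 for Nebraska. Replicate aliquots of a center were close in each case, and the other 9 genes with center dependence had ranges under 0.6. Without any single thymus array from Oregon or Yerkes, or without Nebraska thymus replicate 2, the number of center-dependent genes was 5 to 7.

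**Figure D5:**
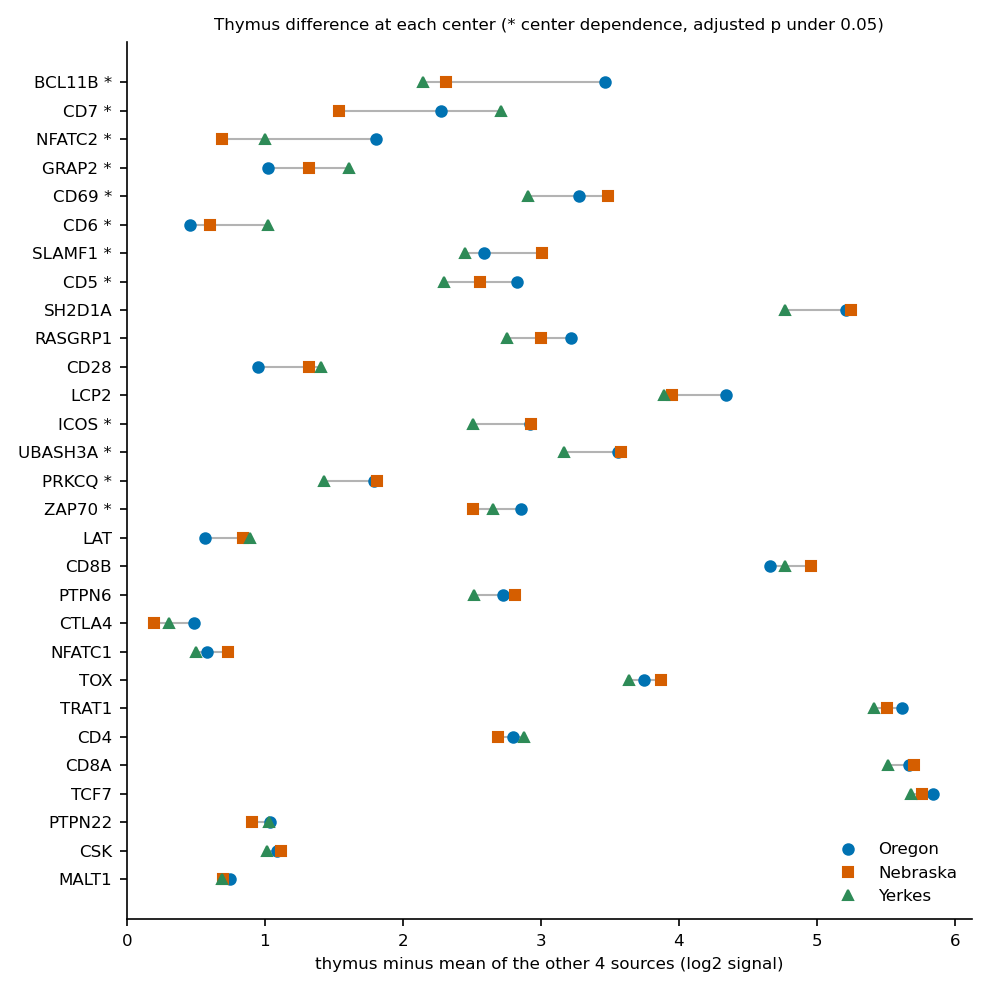
Thymus signal minus the mean of the other 4 sources on the log2 scale (x axis) at each center for the 29 genes (y axis), ordered by the range over centers. An asterisk marks the 12 genes whose difference depended on the center at an adjusted p under 0.05, with BCL11B (3.47 at Oregon, 2.15 at Yerkes) first.

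Other genes of the T cell receptor pathway, most of which are used by many cell types, were less uniform than the list. A gene below another source could still exceed the rest. BCL10, for example, was below fibroblast (-0.25, SE 0.07) but above cortex, pancreas and testis. Of 42 listed, 30 were measured, and 14 of these were higher in thymus than in each other source, 14 were below another source and 2 were not called, where 12.6% of all genes were higher and 74.8% below another. The median difference was 0.09. A difference of 2 or more was reached by 4 of the 30, against 1.14% of all genes. SLA, an adaptor that lowers receptor levels on thymocytes, was at 11.46 ± 0.21 in thymus and 4.33 (SE 0.08) above testis, and PTPRC (CD45), the phosphatase that activates LCK, was 3.80 (SE 0.09) above testis. RHOH, a small GTPase of blood cells, was 3.63 (SE 0.08) above testis, and SIT1, a transmembrane adaptor, was 3.62 (SE 0.08) above pancreas. At the other end, the calcineurin subunit PPP3CB was below cortex (-2.06, SE 0.08), and the AP-1 factor FOS (-1.44, SE 0.07) and the kinase AKT1 (-1.20, SE 0.07) were below fibroblast. Without the center term 9 of the 30 were higher in thymus.

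Cell type markers bore out the source labels in part. Of 7 immature thymocyte genes, 6 were higher in thymus, with DNTT, the enzyme that adds nucleotides at receptor junctions, and CD1A both at 4.24 (SE 0.09 for DNTT and 0.07 for CD1A). CD1E was not called (-0.16, SE 0.10, adjusted p = 0.198). Thymic epithelial genes were higher in thymus for 4 of 7, led by the protease gene PRSS16 at 3.99, and FOXN1, the master factor of this epithelium, was below pancreas (-0.30, SE 0.08). Markers of B cells were higher in thymus for 1 of 5 (MS4A1, 2.53), of myeloid cells for 1 of 5 (LYZ, 3.40) and of cytotoxic T and NK cells for 2 of 7 (GZMB, 2.48, and NKG7, 0.20). The same call was made for 12.6% of all genes, and lists this small give little to set against that share. Below another source were 3 of 5 B cell, 3 of 5 myeloid and 5 of 7 cytotoxic T and NK cell genes, as were 74.8% of all genes. No measured marker of germ cells, testis somatic cells, neurons, fibroblast matrix, acinar cells or red blood cells was higher in thymus. The share of thymus signal that came from cells other than T lineage cells was not tested.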

How the data were processed

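The 30 arrays were hybridized with biotin-labeled cRNA from 5 total RNA samples. Per the study's methods, the authors corrected background with the MAS 5.0 procedure, applied quantile normalization to the arrays of each center separately and summarized all 30 arrays together by RMA, and the deposited values are log2 signals per probeset. These steps were not repeated, and because centers were normalized separately, the fitted differences have center as a term, and ranges over arrays of several centers include the offset between centers.

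All 52865 probesets were fitted with limma 3.58.1 in R 4.3.3 (source and center as terms, empirical Bayes), with Benjamini-Hochberg adjustment over all probesets within each comparison. A gene was called higher in thymus when it exceeded each other source at an adjusted p under 0.05. Symbols came from the platform annotation, which gave 1 symbol to 24956 probesets apart from the array's control probesets, and several symbols to 361. No filter on low signal was applied. Center dependence was an F test of source-by-center terms. The script was tested on simulated data. The genes, lists and tests were chosen with earlier results of these data known. Genes given with array values were, by a rule set with the lists, the coreceptors, the largest and smallest difference of each role, those not called or not highest in thymus, the 3 with the largest testis signal, the 3 with the widest range over centers, those with opposite calls on other probesets, and the 3 largest and 3 smallest of the pathway list. Array values of ICOS, CD28, ZAP70, GRAP2, RASGRP1 and TOX were given in addition, outside this rule. Replicate numbers name aliquots within a center, and deviations of equally numbered arrays correlated by -0.30 to 0.35. The fit reported therefore did not treat them as pairs, and a paired fit was run only as another setting. The 6 sets of the testis shares take arrays by center and number. Probe sequences and detection calls were not used here.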

Additional observations from a re-analysis of the deposited data

Results flagged for a closer look

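The thymus difference of 12 genes differed between centers by the interaction test of the limma fit. The ranges over the 3 centers, in log2 signal, were 1.32 for BCL11B, 1.17 for CD7 and 1.12 for NFATC2, whose values at each center are given above. GRAP2 had a range of 0.59 and CD69 and CD6 each had 0.57. SLAMF1 followed at 0.56, CD5 at 0.53, ICOS at 0.42, UBASH3A at 0.41, PRKCQ at 0.38 and ZAP70 at 0.35. Centers differ in labeling, hybridization and the arrays that were normalized together, and these cannot be told apart. Dixon's criterion marked 0 of the 145 groups formed by a gene and a source, but the offset between centers widens the range of each group, so this says little about single arrays. The widest gap between 2 aliquots of a center was 0.63 for CTLA4 at Nebraska among the thymus pairs, 0.72 for LCP2 at Nebraska among the fibroblast pairs and 0.69 for TRAT1 at Nebraska among the pancreas pairs, where the median gap over all pairs was 0.10.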

How the results depend on the processing

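The count of 25 genes higher in thymus was 20 to 29 over 15 other settings and 24 to 26 when 1 array was left out, and the value of 20 came from 23 genes left once probesets in the lower 50% of mean signal were dropped. The 15 genes with a difference of 2 or more were 12 to 18. The aliquot number as a replicate block, in a paired fit, gave 25 and 15 again and changed no other call. The median difference of 2.25 was 1.87 after quantile normalization of all 30 arrays, 2.09 at Oregon, 2.04 at Nebraska, 2.18 at Yerkes, 2.54 with the most variable probeset per gene, 1.99 with the mean of a gene's probesets and 2.32 without testis arrays, a setting chosen after seeing the data. Genes higher in testis than thymus, 0 in the fit reported, were 1 (LAT) after quantile normalization, at Oregon, at Yerkes, without weak probesets and with an intensity trend, and 0 to 1 with 1 array left out. CTLA4, the 1 gene higher in pancreas, gave 0 without the center term, without weak probesets, with the most variable probeset and with the probeset mean. The 12 center-dependent genes were 7 after quantile normalization, 2 at an adjusted p under 0.001 and 5 to 13 with 1 array left out. Other probesets higher in thymus were 9 without weak ones, and pathway genes 9 without the center term. Single genes turned sign as follows. CD6 was at -0.093 at Oregon and NFATC1 at -0.057 at Yerkes. CTLA4 was at 0.41 without pancreas arrays, 1.13 with the most variable probeset and 0.26 with the probeset mean. LAT was at 3.22 and 0.73 on those probeset choices and 0.49 without testis arrays. The causes were not tested, apart from the smaller number of probesets where weak ones were dropped. Center dependence could not be fitted for single centers, averaged aliquots, the block or without the center term. No detection calls or second RNA per source bear on these values. This limits weak signals such as those of CTLA4 and PTPN22 and small differences such as that of CD6.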
